A study of Mus musculus with 12 samples.

Results

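The genes described are 10 regulators of the G1 phase of the cell cycle in mouse C2C12 myotubes, the CDK inhibitor genes Cdkn1a, Cdkn1b, Cdkn1c, Cdkn2a and Cdkn2c, the D cyclin genes Ccnd1, Ccnd2 and Ccnd3, and the pocket protein genes Rb1 and Rbl1. They were taken from the 55487 genes of the deposited count table by matching Ensembl identifiers to these symbols in a GENCODE annotation of GRCm38, and each symbol matched 1 row. C2C12 cells are mouse myoblasts that, once serum is lowered, leave the cell cycle and fuse to form multinucleated myotubes. All cells were differentiated for 5 days in DMEM with 2% horse serum and penicillin/streptomycin, and the medium was then replaced for 24 h by DMEM with either 4% horse serum (control, 6 libraries, numbered 1 to 6) or 4% STEM (6 libraries, numbered 7 to 12). STEM is the mixture of factors secreted by human embryonic stem cells that were partly differentiated, with no cells in it, and because it took the place of horse serum the addition of STEM and the removal of horse serum cannot be told apart. The labels do not say whether the libraries of a group came from separate cultures, so p-values measure the spread between these libraries, which may be technical.

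In G1, D cyclins bind the kinases CDK4 and CDK6 and phosphorylate the pocket proteins, which otherwise hold E2F transcription factors inactive at the genes of DNA replication. Inhibitors of the Cip/Kip family (Cdkn1a, Cdkn1b and Cdkn1c, encoding p21, p27 and p57) bind cyclin-CDK complexes, whereas inhibitors of the INK4 family (Cdkn2a and Cdkn2c, the latter encoding p18) bind the D cyclin kinases themselves. In skeletal muscle these inhibitors and the pocket proteins hold differentiated myotubes out of the cell cycle, and Ccnd3 is the D cyclin known to persist in them.

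Deposited counts summed to between 13285472 and 24536264 per library, and 14175 genes entered the quasi-likelihood test of edgeR, whose p-values were adjusted over all of them by the Benjamini-Hochberg method. A gene was called differentially expressed at an adjusted p of 0.05 or less. Horse serum library 6 stood apart from its group. It held the highest or lowest value of the 6 horse serum libraries for 69.0% of the tested genes, against 21.1% to 37.2% for the other 5, and its 9 myotube markers summed to 6779 CPM (the count of a gene scaled to a fixed normalized library total), against 12706 to 13705 in the others and 10137 to 12736 in the STEM libraries. Markers of cycling cells summed to 1034 CPM in library 6, to 597 to 914 in the other horse serum libraries and to 455 to 553 with STEM. Each of the 10 genes and the counts over most gene lists are therefore also given without library 6. Other values come from all libraries unless stated, and leaving out library 6 changed the size of some of them. For example, the log2 fold change was -1.29 with all libraries and -1.14 without library 6 for Tk1, and -0.60 and -0.74 for Bbc3. The myotube markers were expressed in every library, and the most abundant of them over all libraries were Acta1, Mylpf and Myh3, with 3819, 2685 and 1259 CPM on average in horse serum. Markers of macrophages, endothelial cells and adipocytes were low, with sums of at most 5.71, 1 and 0.274 CPM in any library, and Adgre1 (macrophage), Kdr (endothelial cell), and Plin1 and Cidec (adipocyte) had no count. The macrophage sum came mainly from Cd68, with 3.60 ± 0.941 CPM in the control and 3.88 ± 0.467 CPM in the STEM libraries (SD, n = 6). Csf1r had 0.288 ± 0.198 and 0.916 ± 0.314 CPM and was too low to be tested with all libraries. Without library 6, 1 of the 2 macrophage markers then tested was called, higher with STEM, beside 26.3% of all genes then tested.

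Of the 9 genes that passed the filter on low counts, 7 were differentially expressed, beside 36.4% of all tested genes. With STEM, Cdkn1c, Cdkn1a and Rb1 were higher, 3 of 9 beside 18.9% of all tested genes, and Ccnd1, Cdkn2c, Cdkn1b and Rbl1 were lower, 4 of 9 beside 17.4%. The libraries of the 2 groups did not overlap for 6 of the 9 genes, beside 17.2% of all tested genes, with Cdkn1c and Cdkn1a above the control libraries (8.68% of all tested genes) and Ccnd1, Cdkn2c, Cdkn1b and Rbl1 below them (8.52%). Cdkn1c and Ccnd1 were called with log2 fold changes of 1 or more in size, in opposite directions, beside 2.69% of all tested genes that were called with such a change in either direction. The median log2 fold change of the 9 genes was 0.03 and that of all tested genes 0.0121. Without library 6, 8 of the 9 genes were called, beside 50.8% of the genes then tested (26.3% higher and 24.5% lower with STEM), and the additional gene was Ccnd2. In RNA from whole cultures, fewer cells of a type and less RNA per cell cannot be told apart.

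**Figure D1:**
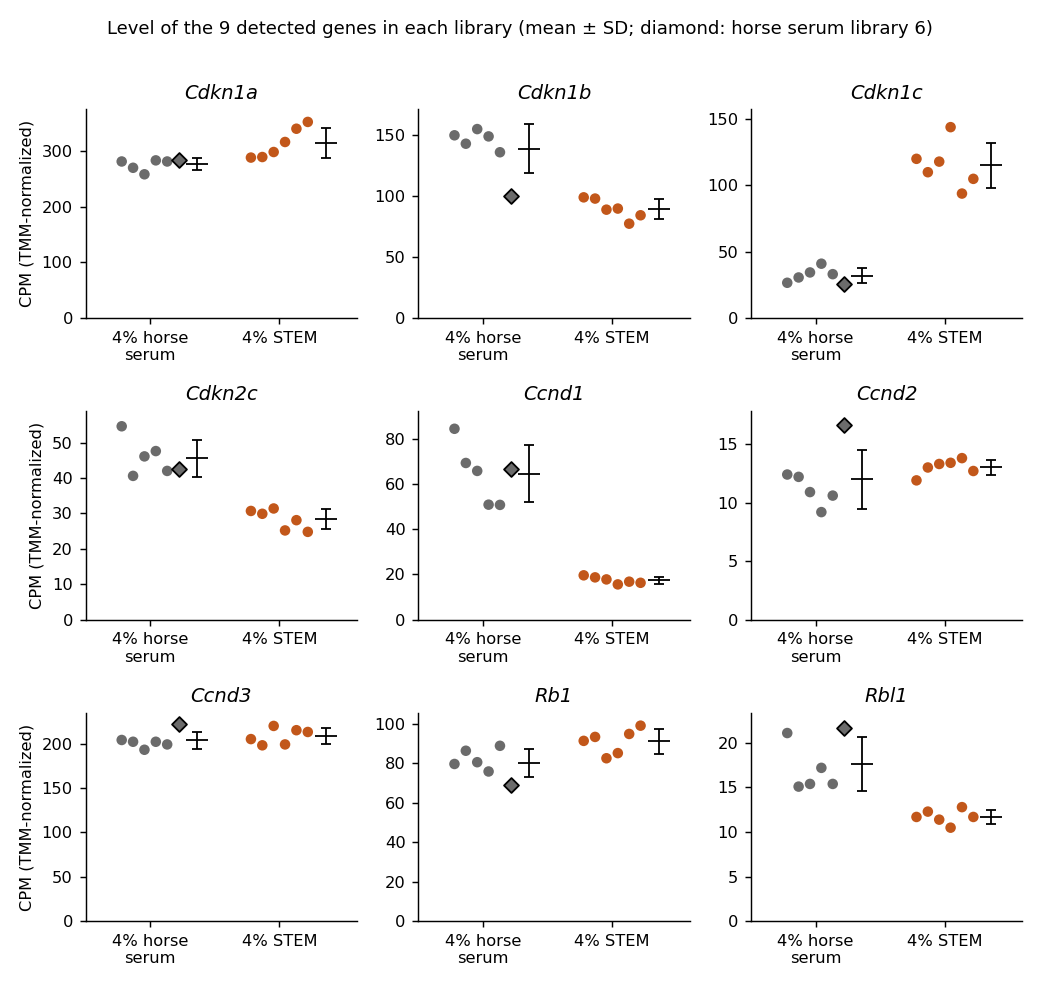
Level of the 9 detected genes in each library, in CPM on a linear axis that starts at 0. Points are libraries (grey, 4% horse serum; orange, 4% STEM; the diamond is horse serum library 6) and bars are the mean ± SD of 6 libraries. All 6 STEM libraries lie above the horse serum libraries for Cdkn1a and Cdkn1c and below them for Cdkn1b, Cdkn2c, Ccnd1 and Rbl1, with Cdkn1b of library 6 (99.9) just above the highest STEM library (99.0).

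Promoter windows of 4 of the genes are shown to place the regulators beside their start sites. Cdkn1a and Cdkn1b are inhibitors of 1 family that moved in opposite directions, Rbl1 is the pocket protein gene that fell, and Ccnd3 is the D cyclin gene that dominated both groups. Each window holds the 250 bases before a RefSeq transcript start (GRCm38.p6), written 5′ to 3′ on the strand of the gene, and no annotated exon lay in these windows. Capitals mark every match, on either strand, to an E2F word (TTTCCCGC, TTTGGCGC, TTTCGCGC or TTTGCCGC), the E-box CAGCTG, the GC box GGGCGG or the CCAAT box.
Cdkn1a, chr17:29093519-29093768, plus strand, at the second of 2 start sites: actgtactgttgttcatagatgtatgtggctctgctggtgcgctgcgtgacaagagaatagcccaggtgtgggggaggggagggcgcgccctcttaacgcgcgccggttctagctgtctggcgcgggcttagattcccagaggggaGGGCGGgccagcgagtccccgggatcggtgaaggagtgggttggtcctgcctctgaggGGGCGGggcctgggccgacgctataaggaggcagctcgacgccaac
Cdkn1b, chr6:134920151-134920400, plus strand: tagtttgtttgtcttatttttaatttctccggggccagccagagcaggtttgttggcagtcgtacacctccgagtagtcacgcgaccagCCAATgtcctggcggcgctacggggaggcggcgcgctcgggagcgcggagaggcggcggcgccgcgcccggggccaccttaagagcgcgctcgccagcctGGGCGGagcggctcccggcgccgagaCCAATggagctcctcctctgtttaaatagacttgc
Rbl1, chr2:157204535-157204784, minus strand: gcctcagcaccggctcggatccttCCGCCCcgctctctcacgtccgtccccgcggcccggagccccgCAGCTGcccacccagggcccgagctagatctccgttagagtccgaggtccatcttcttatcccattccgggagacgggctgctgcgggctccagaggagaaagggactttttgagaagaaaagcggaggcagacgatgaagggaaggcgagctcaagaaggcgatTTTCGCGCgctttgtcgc
Ccnd3, chr17:47504801-47505050, plus strand, at the first of 2 start sites: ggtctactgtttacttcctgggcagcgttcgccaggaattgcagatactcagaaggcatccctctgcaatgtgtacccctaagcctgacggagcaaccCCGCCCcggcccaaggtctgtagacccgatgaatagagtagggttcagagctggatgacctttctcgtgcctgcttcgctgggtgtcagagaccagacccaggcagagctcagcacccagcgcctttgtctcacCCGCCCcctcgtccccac
The Rbl1 window held the E2F word TTTCGCGC, which ended 11 bases before the start. An E2F word was present in 1.86% of the 32851 RefSeq promoter windows of the same length. Cdkn2a, which had no count in any library, also held an E2F word at its first start site. That word, TTTCCCGC, lay 99 to 92 bases before the start, in a window not shown here. The Rbl1 window also held the E-box CAGCTG (13% of all windows), the word bound by MyoD and myogenin in muscle, and a GC box on the reverse strand (32.7% of all windows). In the windows shown, Cdkn1a had 2 GC boxes, Cdkn1b had 1 GC box and 2 CCAAT boxes (33.8% of all windows), and Ccnd3 had 2 GC boxes on the reverse strand. At the start sites not shown, Cdkn1a had no match, and Ccnd3 (chr17:47593217-47593466) had 1 GC box on the reverse strand and 1 CCAAT box. Which of the start sites was used in these cells was not tested. A match describes these letters only and is not evidence of binding. RefSeq windows were matched for 6 of the 10 genes, Cdkn1a, Cdkn1b, Cdkn2a, Cdkn2c, Rbl1 and Ccnd3, and not for Cdkn1c, Rb1, Ccnd1 and Ccnd2.

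Cdkn1c was the CDK inhibitor gene with the greatest difference between the groups. Cdkn1c (ENSMUSG00000037664, chr7:143458339-143461050, minus strand) encodes p57, a Cip/Kip inhibitor known from imprinting and from the arrest of differentiating muscle cells. In the horse serum libraries it had between 25.8 and 41.0 CPM, with a median of 31.9, and in the STEM libraries between 93.9 and 144 CPM, with a median of 114. Every STEM library was thus above every control library by a wide gap. The means were 31.9 ± 5.61 and 115 ± 16.8 CPM (SD, n = 6), a 3.61-fold rise (log2 fold change 1.85, SE 0.120, 95% interval 1.59 to 2.11, adjusted p = 2.02e-07 in edgeR). Leaving out library 6 gave a log2 fold change of 1.79.

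The locus of Cdkn1c lies in a cluster of imprinted genes, and its neighbours were read for the same contrast. Only protein-coding genes were read as neighbours, 6 on either side. The nearest on 1 side, Kcnq1, which encodes a potassium channel, had 2.47 ± 1.04 CPM in the control and 2.28 ± 0.287 CPM in the STEM libraries (SD, n = 6). Kcnq1 was not called (log2 fold change -0.09, edgeR adjusted p = 0.829, and -0.33 without library 6, adjusted p = 0.0754). Slc22a18, on the other side of Cdkn1c, had 3 to 15 counts per library, and Phlda2 had none in any library. Tssc4 and Cars rose, by 0.44 (SE 0.0614, edgeR adjusted p = 6.89e-05) and 0.37 (SE 0.0614, edgeR adjusted p = 0.000309) on the log2 scale. Cd81, Nap1l4, Tspan32 and Tnfrsf22 were not called, with log2 fold changes of -0.01, 0.06, 0.18 and 0.03. The fitted values of the 7 neighbours tested thus reached at most 0.44, beside 1.85 for Cdkn1c, and the difference was not tested. These neighbours were chosen by position, after the results for Cdkn1c were known, and noncoding genes beside Cdkn1c were not read unless they overlap it. The antisense gene Gm44732, which shares 625 bases of exon with Cdkn1c, had 1 to 8 counts per library, beside 388 to 2945 counts of Cdkn1c.

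Cdkn1a and Cdkn1b, of the same family, moved in opposite directions and by less. Cdkn1a (ENSMUSG00000023067, chr17:29090976-29100727, plus strand) encodes p21, which is induced by MyoD during myoblast differentiation and by p53 after DNA damage. It had between 258 and 284 CPM in horse serum, with a median of 281, and between 288 and 352 CPM with STEM, with a median of 307. The groups did not overlap, but the highest control library (284 CPM) came close to the lowest STEM library (288 CPM). The means were 276 ± 10.4 and 314 ± 27.2 CPM (SD, n = 6), a 1.14-fold rise (log2 fold change 0.19, SE 0.0561, 95% interval 0.07 to 0.31, adjusted p = 0.0173 in edgeR), and the log2 fold change was also 0.19 without library 6.

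Cdkn1b (ENSMUSG00000003031, chr6:134920401-134925513, plus strand) encodes p27, which accumulates in quiescent cells and is removed by the ubiquitin ligase subunit Skp2. Its level was between 99.9 and 155 CPM in horse serum, with a median of 146, and between 77.4 and 99.0 CPM with STEM, with a median of 89.3. The control libraries other than library 6 had 136 CPM or more, and it was library 6 alone that came close to the STEM libraries. Mean CPM was 139 ± 20.2 and 89.6 ± 8.19 (SD, n = 6), 1.55-fold higher in horse serum (log2 fold change -0.63, SE 0.0952, 95% interval -0.84 to -0.43, adjusted p = 0.000174 in edgeR). Without library 6 the log2 fold change was -0.71 and the adjusted p in edgeR was 1.37e-08.

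Cdkn2c (ENSMUSG00000028551, chr4:109660876-109667189, minus strand), the INK4 gene that encodes p18, fell. Its libraries held between 40.6 and 54.6 CPM in horse serum, with a median of 44.3, and between 24.8 and 31.4 CPM with STEM, with a median of 29.0. No control library came within the range of the STEM libraries. From 45.6 ± 5.17 CPM in horse serum it went to 28.3 ± 2.83 CPM (SD, n = 6), a level 1.61-fold higher in horse serum (log2 fold change -0.68, SE 0.0820, 95% interval -0.86 to -0.51, adjusted p = 2.02e-05 in edgeR). The log2 fold change was -0.70 without library 6.

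Cdkn2a (ENSMUSG00000044303, chr4:89274471-89294653, minus strand), which encodes p16 and p19ARF, had 0 counts in all 12 libraries and was not tested. At the depth of each library, 0 counts allow a level of up to 0.122 to 0.232 CPM (3 counts, counting error only). Among the protein-coding neighbours, Cdkn2b, the adjoining INK4 gene that encodes p15, also had no count, nor had Dmrta1 and Zfp352 beyond it. On the other side, the first protein-coding gene, Mtap, a housekeeping enzyme of the methionine salvage pathway, had 542 to 1116 counts per library. Its means were 43.7 ± 6.67 CPM and 42.8 ± 2.59 CPM in the control and STEM libraries (SD, n = 6). The log2 fold change of Mtap was -0.03 (edgeR adjusted p = 0.793), and 0.06 without library 6. Further out, Ifna4, Ifna5 and Ifna6 on the side of Mtap had no count, and on the other side Elavl2 had at most 2 counts and Gm12666 21 to 71 counts per library.

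Ccnd1 fell, and the other D cyclin genes were not called. Ccnd1 (ENSMUSG00000070348, chr7:144929931-144939925, minus strand) encodes cyclin D1, which growth factors induce in proliferating myoblasts. It ranged from 50.7 to 84.3 CPM in horse serum, with a median of 66.1, and from 15.6 to 19.6 CPM with STEM, with a median of 17.3. The lowest control library was above the highest STEM library, and the spread within the STEM group was narrow. Mean levels were 64.5 ± 12.6 and 17.5 ± 1.51 CPM (SD, n = 6), 3.69-fold higher in horse serum (log2 fold change -1.88, SE 0.117, 95% interval -2.13 to -1.63, adjusted p = 9.48e-08 in edgeR). Without library 6, in which Ccnd1 was 66.6 CPM, the log2 fold change was -1.87. LTO1, a gene on the opposite strand that shares 1100 bases of exon with Ccnd1, rose by 0.38 on the log2 scale (SE 0.0847, edgeR adjusted p = 0.00263). Whether the counting used the strand is not given in the sources used here.

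Ccnd2 (ENSMUSG00000000184, chr6:127125162-127152193, minus strand), which encodes cyclin D2, was the D cyclin gene with the fewest reads. Its horse serum libraries were between 9.19 and 16.6 CPM, with a median of 11.5, and its STEM libraries between 11.9 and 13.8 CPM, with a median of 13.2. The highest value was that of library 6, the only control library above 12.4 CPM. Mean CPM was 12 ± 2.54 and 13 ± 0.671 (SD, n = 6), with a log2 fold change of 0.11 (SE 0.115, 95% interval -0.13 to 0.36, adjusted p = 0.466 in edgeR). Without library 6 Ccnd2 was called, with a log2 fold change of 0.24 (edgeR adjusted p = 0.0241), so that library 6 decided whether it was called.

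Ccnd3 (ENSMUSG00000034165, chr17:47505051-47599691, plus strand) encodes cyclin D3, which is induced as myoblasts differentiate. Between 193 and 222 CPM were measured in horse serum, with a median of 202, and between 198 and 219.8 CPM with STEM, with a median of 209. The STEM range lay within the control range only with library 6, the highest control library at 222 CPM. The other control libraries had 193 to 204 CPM. Mean CPM was 204 ± 9.55 and 208 ± 9.05 (SD, n = 6), and the log2 fold change was 0.03 (SE 0.0441, 95% interval -0.06 to 0.13, adjusted p = 0.612 in edgeR). Without library 6 Ccnd3 was again not called, with a log2 fold change of 0.06 (edgeR adjusted p = 0.211). Bysl, which shares 361 bases of exon with Ccnd3 on the opposite strand, had 20.0 ± 3.73 CPM in horse serum and 30.4 ± 1.58 CPM with STEM and rose by 0.60 on the log2 scale (edgeR adjusted p = 0.000281).

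The pocket protein genes Rb1 and Rbl1 moved in opposite directions. Rb1 (ENSMUSG00000022105, chr14:73183673-73325822, minus strand) encodes the retinoblastoma protein, which is needed for the lasting exit of myotubes from the cell cycle. Its level was between 69.0 and 88.9 CPM in horse serum, with a median of 80.2, and between 82.6 and 99.1 CPM with STEM, with a median of 92.4. The groups overlapped. Mean CPM was 80.1 ± 7.21 and 91.1 ± 6.16 (SD, n = 6), a 1.14-fold rise (log2 fold change 0.19, SE 0.0632, 95% interval 0.05 to 0.32, adjusted p = 0.0310 in edgeR). The call was lost in 7 of the 12 fits that left out 1 library, those without horse serum libraries 1, 3 or 4 or STEM libraries 7, 8, 11 or 12, with adjusted p between 0.0521 and 0.0707 in edgeR. Without library 6 it held, at a log2 fold change of 0.15 (edgeR adjusted p = 0.0235). On the opposite strand, Rcbtb2 shares 488 bases of exon with Rb1 and had 422 to 830 counts per library, and Lpar6 shares 408 bases and had 75 to 198 counts. Neither was called with all libraries (log2 fold changes 0.09 and 0.12, edgeR adjusted p = 0.198 and 0.490), and Lpar6 was called without library 6 (0.24, adjusted p = 0.0477).

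Rbl1 (ENSMUSG00000027641, chr2:157145893-157204534, minus strand) encodes p107, the pocket protein that is abundant in cycling cells and is itself an E2F target gene. The horse serum libraries had between 15.1 and 21.7 CPM, with a median of 16.3, and the STEM libraries between 10.5 and 12.8 CPM, with a median of 11.7. All STEM libraries were below all control libraries, of which libraries 1 and 6 were the highest. Mean CPM was 17.7 ± 3.01 and 11.7 ± 0.783 (SD, n = 6), 1.51-fold higher in horse serum (log2 fold change -0.59, SE 0.101, 95% interval -0.81 to -0.38, adjusted p = 0.000378 in edgeR), and the log2 fold change was -0.52 without library 6. Rbl2, the remaining pocket protein gene, which encodes p130, fell from 113 ± 3.06 to 97.4 ± 4.34 CPM (SD, n = 6, log2 fold change -0.22, SE 0.0405, edgeR adjusted p = 0.000785), with no overlap between the groups.

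**Figure D2:**
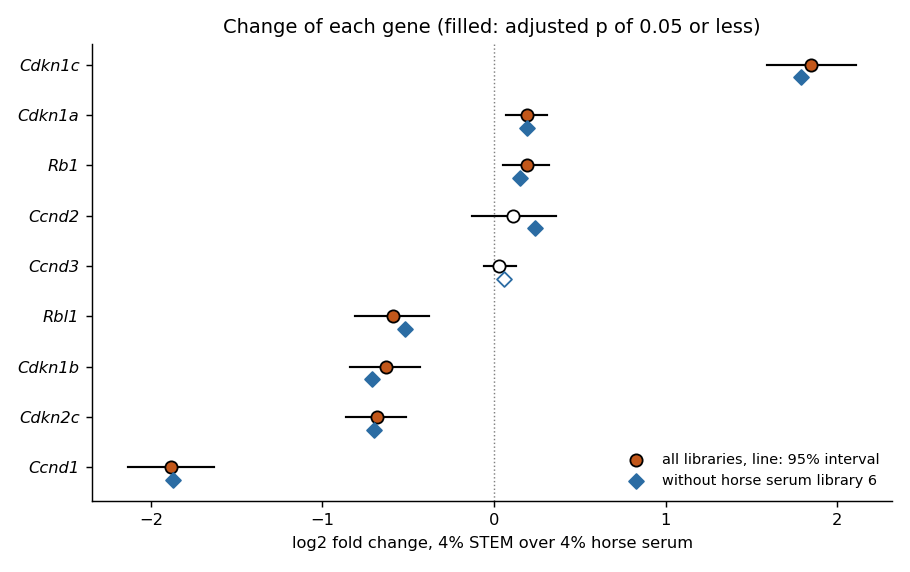
Log2 fold change of each of the 9 tested genes, 4% STEM over 4% horse serum, from the fit of all 12 libraries (circles, with the 95% interval as a line) and without horse serum library 6 (diamonds). Filled symbols have an adjusted p of 0.05 or less. Cdkn1c (1.85) and Ccnd1 (-1.88) lie at the ends, and Ccnd2 is filled only without library 6.

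Levels of different genes were compared per kilobase of exon (RPKM). In horse serum Cdkn1a was highest, with 77.7 ± 2.93 RPKM (SD, n = 6), followed by Cdkn1b (30.5 RPKM) and Ccnd3 (23.2 RPKM), whose library ranges overlapped. Cdkn2c (17.0 RPKM), Cdkn1c (15.7 RPKM), Ccnd1 (13.7 RPKM) and Rb1 (13.3 RPKM) came next, each overlapping its neighbour in this order, and Rbl1 (2.95 RPKM) and Ccnd2 (1.27 RPKM) were lowest. Without library 6, Cdkn1b (32.2 RPKM) no longer overlapped Ccnd3 (22.8 RPKM), and Rb1 (13.7 RPKM) and Ccnd1 (13.6 RPKM), which overlapped, changed places. With STEM, Cdkn1c was at the second place after Cdkn1a (88.4 ± 7.67 RPKM), with 56.5 ± 8.24 RPKM (SD, n = 6). It was followed by Ccnd3 (23.7 RPKM), Cdkn1b (19.7 RPKM), Rb1 (15.1 RPKM), Cdkn2c (10.5 RPKM), Ccnd1 (3.71 RPKM), Rbl1 (1.96 RPKM) and Ccnd2 (1.38 RPKM). No neighbours in the STEM order overlapped in their library ranges. This order was taken with the union of exons as gene length. The union of exons of Ccnd3 is 8775 bases and its longest transcript 3858 bases, while both are 4552 bases for Cdkn1b. The places and the overlaps therefore depend on the length used.

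The composition of the transcripts of the 4 CDK inhibitor genes detected among the 10 genes therefore differed between the groups. Cdkn2d, an INK4 gene outside the 10 genes, was also detected and is not part of these sums and shares. It had 46.9 CPM on average in horse serum and 34.3 CPM with STEM. Of the summed RPKM of the 4 genes, Cdkn1c made up 8.97% to 13.4% in the horse serum libraries and 27.2% to 37.3% in the STEM libraries. The means of Cdkn1c were 11.1% ± 1.59 and 32.2% ± 3.66 (SD, n = 6). The share of Cdkn1b was 21.6% ± 2.55 in horse serum and 11.3% ± 1.19 with STEM, and that of Cdkn2c was 12% ± 1.08 and 6.05% ± 0.785, in both cases without overlap between the groups. Cdkn1a held 55.3% ± 3.38 in horse serum and 50.5% ± 4.35 with STEM, with overlap. The sum of the 4 genes was 141 ± 6.79 RPKM in horse serum and 175 ± 7.57 RPKM with STEM. In the 5 horse serum libraries other than library 6, the mean shares were 11.4% for Cdkn1c, 22.6% for Cdkn1b, 12% for Cdkn2c and 54.1% for Cdkn1a, and the same shares overlapped or not. The shares are a description, and no test was run on them.

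Among the D cyclin transcripts, Ccnd3 made up 61.0% ± 4.32 in horse serum and 82.3% ± 1.07 with STEM (SD, n = 6), although its own level was not called different. Ccnd1 made up 35.6% ± 4.31 and 12.9% ± 1.15, and Ccnd2 made up 3.31% ± 0.504 and 4.80% ± 0.297. The groups overlapped for none of these shares when the union of exons was used as gene length, but they overlapped for Ccnd2 when the longest transcript was used. The sum of the D cyclin genes was 38.2 ± 3.29 RPKM in horse serum and 28.8 ± 1.04 RPKM with STEM. The summed level of Cdkn1a, Cdkn1b, Cdkn1c and Cdkn2c, without Cdkn2d, was then set against the summed D cyclin level. It was 3.17 to 4.33 times that level in the horse serum libraries and 5.73 to 6.89 times in the STEM libraries. The mean ratios were 3.72 ± 0.431 and 6.09 ± 0.426. Without library 6 the horse serum mean was 3.83 ± 0.377 (SD, n = 5), with Ccnd1 at 35.9%, Ccnd2 at 3.12% and Ccnd3 at 61.0% of the D cyclin level. With the longest transcript as length the mean ratios were 2.77 and 4.01. These are ratios of RNA levels, and protein was not measured.

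**Figure D3:**
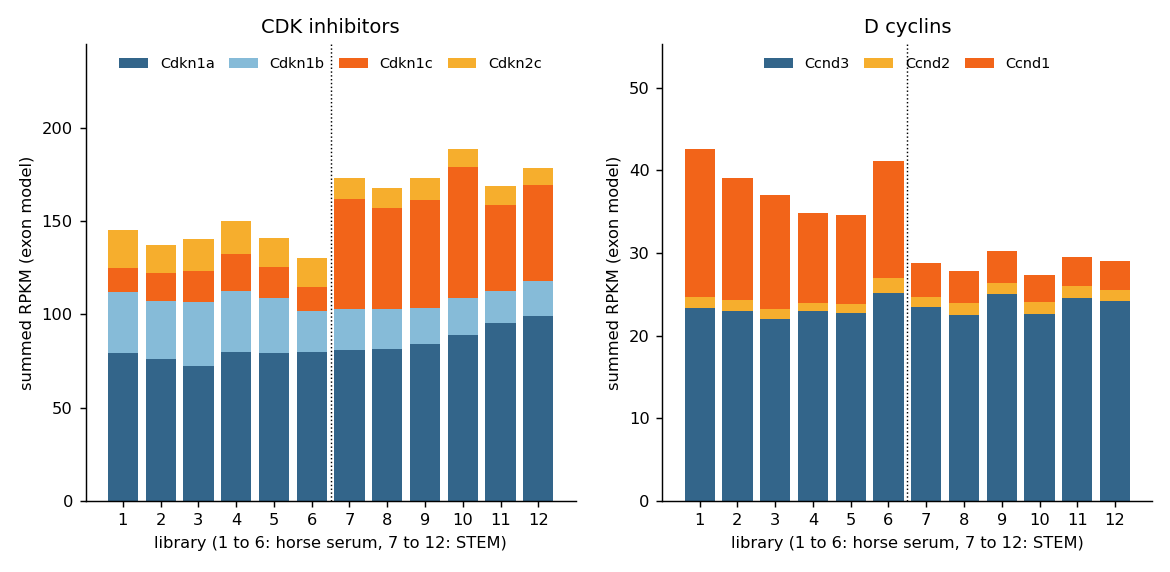
Summed RPKM of the CDK inhibitor genes Cdkn1a, Cdkn1b, Cdkn1c and Cdkn2c (left) and of the D cyclin genes (right) in each library, as stacked bars from 0. Libraries 1 to 6 received horse serum and libraries 7 to 12 STEM. The Cdkn1c segment is 27.2% to 37.3% of the bar with STEM and 8.97% to 13.4% in horse serum, and the Ccnd1 segment is 11.9% to 14.4% with STEM and 31.0% to 42.1% in horse serum.

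The genes around these regulators in the same pathway were taken from 7 lists with 81 genes, of which 80 were tested and 47 called, 12 higher and 35 lower with STEM. Over all tested genes 36.4% were called, 18.9% higher and 17.4% lower, and the counts of each list below are to be read beside these shares, or beside 50.8%, 26.3% and 24.5% without library 6. Among the 4 other CDK inhibitor and pocket protein genes, Cdkn2d and Rbl2 fell, Cdkn2b was at 0 and Cdkn3 was not called. Cdkn2d, which encodes the INK4 inhibitor p19, went from 46.9 ± 8.01 to 34.3 ± 3.64 CPM (here and for the other lists SD, n = 6; log2 fold change -0.45, SE 0.106, edgeR adjusted p = 0.00405). Cdkn3, which encodes a phosphatase of CDKs, had 4.84 ± 1.88 CPM in horse serum, with 8.46 CPM in library 6, and 4.30 ± 0.636 CPM with STEM (edgeR adjusted p = 0.486).

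Among 13 CDKs and partner cyclins, 7 fell, beside 17.4% of all tested genes, 1 rose and 5 were not called, and the median log2 fold change was -0.20. Without library 6, 7 were lower and 2 higher. The cyclin E genes, whose products act with CDK2 at the entry into S phase, both fell, Ccne2 from 11 ± 1.63 to 6.15 ± 0.622 CPM (log2 fold change -0.83, edgeR adjusted p = 3.37e-05) and Ccne1 from 7.45 ± 1.73 to 4.23 ± 0.466 CPM (-0.82, adjusted p = 0.000413). Cdk7, the kinase that activates other CDKs, rose from 36.2 ± 3.78 to 50.2 ± 2.25 CPM (log2 fold change 0.47, edgeR adjusted p = 7.58e-05). Mnat1, which assembles CDK7 with cyclin H, fell from 81.7 ± 5.28 to 60.1 ± 5.17 CPM (log2 fold change -0.44, edgeR adjusted p = 6.97e-05). Of the kinases that D cyclins bind, Cdk6 fell (log2 fold change -0.43, edgeR adjusted p = 0.0188), and Cdk4 was not called (0.13, adjusted p = 0.190) except without library 6 (0.21, adjusted p = 0.000864).

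The 10 E2F and DP genes include those of the transcription factors held by pocket proteins. Of the 10 genes, 2 rose, 3 fell and 5 were not called. With 5 of 10 called, beside 36.4% of all tested genes, and again 5 of 10 without library 6, beside 50.8%, the list as a whole was near the background. E2f1, an activator of S phase genes, fell from 8.67 ± 1.71 to 4.60 ± 0.764 CPM (log2 fold change -0.91, edgeR adjusted p = 0.000180), and Tfdp2, a dimer partner, fell from 66.7 ± 5.54 to 42.9 ± 2.26 CPM (log2 fold change -0.63, edgeR adjusted p = 2.12e-06). E2f6, a repressor that does not bind pocket proteins, also fell (log2 fold change -0.34, edgeR adjusted p = 0.0290). E2f4, the factor that pairs with p107 and p130 in arrested cells, rose from 20.3 ± 1.70 to 26.7 ± 1.52 CPM (log2 fold change 0.39, edgeR adjusted p = 0.000292), and E2f8, an atypical repressor, rose as well (log2 fold change 0.36, edgeR adjusted p = 0.00881). The median of the list was -0.22 with all libraries and -0.12 without library 6.

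Most E2F target genes of the G1/S transition fell, with 15 of 19 lower, beside 17.4% of all tested genes, none higher and a median log2 fold change of -0.46. The 4 not called were Tyms, Gins1, Chek1 and Orc1. Groups did not overlap for 12 of the 19 genes, all with STEM below, which was the case for 8.52% of all tested genes. Tk1, thymidine kinase, fell from 27.5 ± 8.13 to 11.3 ± 0.898 CPM (log2 fold change -1.29, edgeR adjusted p = 3.63e-05), Pola1, the catalytic subunit of DNA polymerase alpha, from 36.0 ± 4.48 to 19.8 ± 2.04 CPM (-0.86, adjusted p = 4.51e-06), and Cdc45, of the replicative helicase, from 15.2 ± 1.47 to 9.16 ± 0.791 CPM (-0.73, adjusted p = 1.46e-05). Without library 6, 14 genes were lower, beside 24.5% of the genes then tested, Rrm2 was no longer called, Tyms was higher (log2 fold change 0.33, edgeR adjusted p = 0.00259) and the median was -0.35. Library 6 held the highest control value of 17 of the 19 genes, all but Rrm2 and Cdc45, with 41.1 CPM of Tk1, for example, against 21.5 to 34.1 CPM in the others.

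Markers of other cell states moved beside these genes. Of the 8 markers of cycling cells, Top2a, Mki67, Tpx2, Aurkb and Birc5 fell, with and without library 6, and Plk1, Cdc20 and Ube2c were not called. These 5 of 8 stood beside 17.4% of all tested genes lower with STEM, or 24.5% without library 6. The summed level of the 8 was 597 to 1034 CPM in horse serum and 455 to 553 CPM with STEM. Of the 5 tested markers of undifferentiated or reserve myoblasts, which remain between myotubes in C2C12 cultures, Vcam1, Cd34, Spry1 and Myf5 fell, with and without library 6. These 4 of 5 stood beside the same shares of 17.4% and 24.5%. Pax7 was not called, and Calcr had no count. The summed level of the reserve myoblast markers was 242 to 291 CPM in horse serum and 168 to 184 CPM with STEM. Of the 9 myotube markers, Mymk rose and Myog and Myh8 fell, with 3 of 9 called beside 36.4% of all tested genes. Without library 6, which had the lowest control value of all 9, 7 were called, beside 50.8% of the genes then tested. Of these, Mymk was higher and Myog, Myh8, Acta1, Mylpf, Tnnt3 and Tnni2 were lower, and the median log2 fold change of the 9 was -0.25. Fibroblast markers summed to 12.5 to 26.6 CPM in horse serum, the highest in library 6, and to 23.4 to 26.1 CPM with STEM, with Dpt higher (log2 fold change 1.10, edgeR adjusted p = 0.000503) and Thy1 and Lum at or below 3 counts per library. Pdgfra was not called with all libraries (0.41, edgeR adjusted p = 0.112) and was higher without library 6 (0.67, adjusted p = 2.48e-06). The 2 tested fibroblast markers were thus higher without library 6, beside 26.3% of the genes then tested. The part of unfused cells in the changes of Ccnd1, Rbl1 and the E2F targets was not tested.

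The DREAM and MuvB list holds genes whose products join p107 or p130 with E2F4 to silence cell cycle genes. It also holds genes outside that silencing complex, among them Mybl2 and Foxm1. Of the list, 5 of 8 genes were lower, beside 17.4% of all tested genes, and none higher, with a median log2 fold change of -0.27. Without library 6 the count was again 5 of 8, beside 24.5%. The 5 were Lin54, Rbbp4, Lin9, Mybl2 and Foxm1. Lin54, the DNA-binding subunit, fell from 19.2 ± 1.67 to 14.4 ± 0.811 CPM (log2 fold change -0.41, edgeR adjusted p = 0.000324), and Rbbp4, a histone-binding subunit, from 276 ± 12 to 235 ± 11.5 CPM (-0.23, adjusted p = 0.00120). Mybl2 and Foxm1, which replace the pocket protein on MuvB in cycling cells, fell by 0.81 and 0.53 on the log2 scale. Without library 6 their log2 fold changes were -0.67 and -0.34.

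For the ubiquitin ligases and kinases that set the stability of CDK inhibitors and D cyclins, 2 of 13 genes rose and 1 fell, and without library 6 both numbers were 3. These shares, 3 of 13 called and 6 of 13 without library 6, were below the 36.4% and 50.8% of all tested genes. Gsk3b, the kinase that marks cyclin D1 for degradation, rose from 62.8 ± 6.81 to 82.1 ± 9.57 CPM (log2 fold change 0.39, edgeR adjusted p = 0.00222). Dtl, the substrate receptor for p21 in S phase, fell from 8.71 ± 1.86 to 4.54 ± 0.473 CPM (log2 fold change -0.94, edgeR adjusted p = 9.47e-05). Ambra1, the receptor that targets D cyclins for degradation, was called at an adjusted p of 0.0451 in edgeR (log2 fold change 0.26), a call that 10 of the 12 fits without 1 library did not give. Skp2, the receptor for p27, had 17.3 ± 1.55 CPM in horse serum and 15.4 ± 0.906 CPM with STEM and was not called (edgeR adjusted p = 0.0753).

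Of 14 genes comprising p53 and its targets, listed because Cdkn1a is itself a known p53 target, 7 rose, beside 18.9% of all tested genes, 2 fell, beside 17.4%, and 5 were not called, with a median log2 fold change of 0.28. Sesn2, a stress-induced sestrin, rose from 14.9 ± 1.65 to 23.6 ± 1.95 CPM (log2 fold change 0.66, edgeR adjusted p = 2.55e-05). Mdm2, the ligase of p53, rose from 66.4 ± 3.96 to 82.0 ± 5.01 CPM (log2 fold change 0.31, edgeR adjusted p = 0.000361), and Bax, a mediator of apoptosis, from 44.5 ± 2.32 to 56.7 ± 4.93 CPM (0.35, adjusted p = 0.000467). Sesn1, also a sestrin, fell from 74.0 ± 4.61 to 44.0 ± 3.52 CPM (log2 fold change -0.75, edgeR adjusted p = 4.69e-07), and Bbc3, which encodes PUMA, fell by 0.60 on the log2 scale. Seen without library 6, 8 of the 14 rose and 4 fell, beside 26.3% and 24.5% of the genes then tested, with a median of 0.19, and library 6 held the lowest control value of 10 of them.

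**Figure D4:**
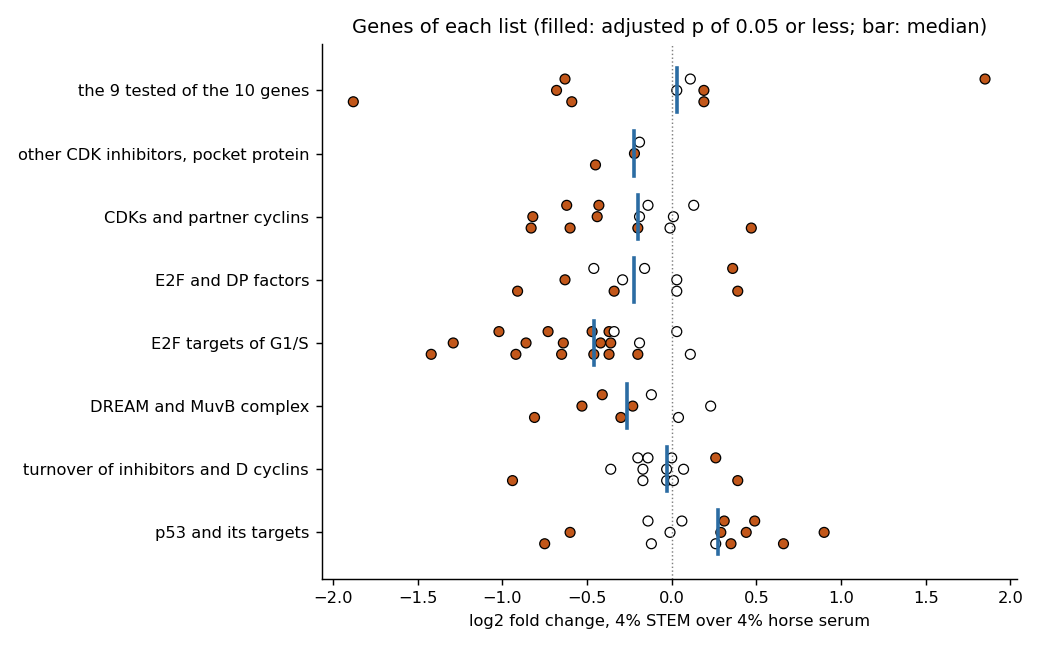
Log2 fold change, 4% STEM over 4% horse serum, of the 9 tested genes (top) and of each gene of the 7 pathway lists. Each point is a gene, filled at an adjusted p of 0.05 or less, and the blue bar is the median of the list. The E2F targets lie mostly below 0 (median -0.46), and the p53 list mostly above it (median 0.28).

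For the 3 genes with the greatest changes, the genes whose log2 CPM followed them most closely over the 12 libraries were found by the root mean square difference after centring. Ccnd1 was nearest to Slc30a1, a zinc exporter, at a difference of 0.239, and then to Mogat2, an enzyme of lipid synthesis (0.240), and Fabp5, a fatty acid binding protein (0.244). Slc30a1 went from 10.4 to 2.93 CPM, a log2 fold change of -1.81, beside -1.88 for Ccnd1. Cdkn1c was nearest to Tspan8, a tetraspanin, at a difference of 0.256, and to Cdh6, a cadherin (0.291), and Aldh1a3, an enzyme of retinoic acid synthesis (0.295), which rose by 1.76, 1.96 and 1.95 on the log2 scale. Closest to Cdkn2c were Tle6 (0.0913), Agfg2 (0.102) and Ncapd3 (0.105), the last a condensin subunit, with log2 fold changes of -0.64, -0.60 and -0.67. The measure is a description over libraries that share the treatment contrast.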

How the data were processed

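The authors prepared stranded libraries of total RNA after removal of ribosomal RNA and deposited raw counts of reads per Ensembl gene for the 12 libraries (6 per group). The submitters' processing notes name STAR 2.7.3a, featureCounts 1.6.3, DESeq2 1.26.0 and build GRCm38. The annotation release and the strand setting of the counting are not given in the sources used here. Groups were taken from the sample labels.

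The counts were tested with edgeR 4.0.16 in R 4.3.3 (filterByExpr, TMM, robust glmQLFit, glmQLFTest), with no covariate and with p-values adjusted by the Benjamini-Hochberg method over all 14175 tested genes and a threshold of 0.05. CPM used the TMM-scaled library totals, RPKM divided them by the union of exons in GENCODE, and the patterns over libraries used log2 CPM with a prior count of 2. Of the 55487 listed genes, 55227 were in this annotation, and the others held 0.00268% of the counts. Totals of 13285472 to 24536264 counts per library set the precision, and a count of 0 allows up to 3 counts (counting error only). Within a group all pairs of libraries differed by more than sampling noise (chi-square over genes, divided by its degrees of freedom, at least 3.63). The fit was tested on simulated data.

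As alternatives, DESeq2 1.42.0, limma-voom (limma 3.58.1), size factors of DESeq2, unscaled totals, a fit with no filter on low counts, the longest transcript as length and fits without 1 library were run. The genes and lists were chosen with earlier results of these data known. Named were all 10 genes. From each list all 4 genes of a list of 4 were named, or else the called gene with the lowest p in each direction and at most 2 more. Up to 3 abundant markers per list and the 3 genes nearest to the 3 greatest changes were added. Genes that complete a count of 5 or fewer, markers beyond that number, Cdk4, Cdk6, Skp2, Tyms, and genes named by position at a locus were added after their values were seen. Sequences are from RefSeq on GRCm38.p6.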

Additional observations from a re-analysis of the deposited data

Results flagged for a closer look

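In groups of 6, the highest or lowest library was compared with the nearest of the others by Dixon's criterion, which flags about 1 in 20 groups by chance. Of 116 groups tested, 11 were flagged, all of them in horse serum and 10 on library 6. Among the genes of the G1 machinery, Cdkn1b was 99.9 CPM in library 6, against 136 to 155 in the other horse serum libraries, and Ccnd2 made up 4.28% of the D cyclin RPKM there, against 2.81% to 3.32%. In the pathway lists, Cdkn3 was high in library 6 (8.46 CPM, against 3.10 to 5.01), as was Ambra1 (35.4 CPM, against 23.4 to 27.4). Mdm2 was high in horse serum library 3, with 74.1 CPM against 63.2 to 66.8.

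Muscle markers were low in library 6, with 2553 CPM of Acta1 (3895 to 4339 in the others), 1371 CPM of Mylpf (2869 to 3126) and 647 CPM of Myh3 (1285 to 1522), and the summed myotube markers were 6779 CPM (12706 to 13705). Pdgfra was high there, at 24.8 CPM (9.32 to 13.1), and so were the summed fibroblast markers, at 26.6 CPM (12.5 to 17.2). What set library 6 apart was not tested.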

How the results depend on the processing

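Of the 9 genes, 7 were called with all libraries, 6 or 7 in the fits without 1 library other than library 6, 8 without library 6 and 7 under each of the 5 other alternatives. For all genes these counts were 5155, 4459 to 4801, 7245 and 4648 to 5318, and for the pathway lists 47, 42 to 47, 54 and 43 to 48. The calls of Rb1 (lost in 7 fits) and Ccnd2 (gained without library 6) were the only ones of the 9 genes that changed. Over the fits without 1 library, log2 fold changes ranged from 1.78 to 1.94 for Cdkn1c and from -1.94 to -1.79 for Ccnd1. The direction turned without library 6 for Cdkn3 (0.05, with -0.29 as the lowest value over the fits without 1 library) and Cd68 (-0.01, highest 0.21), and without STEM library 10 for Pax7 (0.02, lowest -0.12), none of them called. Acta1, Mylpf and Pdgfra were called only without library 6, and Tpx2 was not called with no filter on low counts (edgeR adjusted p = 0.0731). With the longest transcript as length, the shares in horse serum and with STEM were 23.9% and 7.70% for Ccnd1, 2.61% and 3.39% for Ccnd2, 73.5% and 88.9% for Ccnd3, 66.9% and 62.2% for Cdkn1a, 15.4% and 8.13% for Cdkn1b, 8.45% and 25% for Cdkn1c, and 9.28% and 4.75% for Cdkn2c. The length alone differs in this alternative. No paired analysis was possible because the groups share no replicate numbers.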
